A study of Mus musculus with 9 samples.

Results

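Sialyl-, fucosyl-, sulfo- and glycosyltransferases are the enzymes of the Golgi that extend, branch and cap the sugar chains of glycoproteins, glycolipids and proteoglycans. Their genes were taken from the expression table as every row whose symbol begins with St3gal, St6gal, St8sia, B3gnt, B4galt, Galnt, Gcnt or Mgat, or with Fut or Chst and then a digit. This gave 92 of 23332 rows, with 90 distinct symbols, since *St3gal6* stood in 3 rows. In 2 rows the symbol was joined to that of a neighbouring gene (St6galnac4 with St6galnac6, and B4galt2 with Ccdc24), and each joined row was kept as 1 member. Older symbols were kept as the table gives them, so that *B3gnt1* is the gene now named *B4gat1* and *B3gnt9-ps* the one now named *B3gnt9*.

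The MOE line used here is a single clone of secretory epithelium from the oviduct of FVB mice, and its RNA was sequenced to find the genes that estrogen regulates and to see how they respond to a selective estrogen receptor modulator. All cells had been grown in medium with estradiol, were then starved of hormone for 48 h, and were treated for 24 h with 0.1% DMSO (solvent), 1 nM estradiol (E2) or 100 nM 4-hydroxytamoxifen (4OHT), in 3 samples per condition. The doses of E2 and 4OHT differ, and no sample received both. Replicate numbers 1 to 3 are given in the labels of every condition, with no word on separate cultures, so p-values measure only the spread between these samples. No other clone was measured.

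Sialyltransferases place sialic acid at the ends of chains, and fucosyltransferases add fucose to the core or the arms. GALNT enzymes start mucin-type O-glycans on serine and threonine, GCNT enzymes branch them, and MGAT enzymes set the number of antennae of an N-glycan. B3GNT and B4GALT enzymes act in turn to lengthen arms of N-acetyllactosamine, and CHST enzymes sulfate chondroitin, keratan and related chains. In the oviduct and uterus the glycans that line the lumen are known to vary with the hormonal state.

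Values are FPKM, in which reads are divided by the length of the transcript and by the mapped reads of the library. Levels of different genes can be set beside each other only roughly. Some rows are joined, and others overlap another gene on their strand (*Galnt2* with *Gm20388*, for example). They summed to between 522517 and 588640 per sample, and between 11037 and 11175 rows reached 1 FPKM. The steps between the smallest values put the depth of the samples at 0.82 to 1.19 times that of DMSO replicate 1, with 4OHT at 0.82 to 0.92 and DMSO at 1 to 1.19. Of 8 markers of secretory oviduct epithelium 6 had a median of at least 1 FPKM (*Pax8*, for example, at 105 to 150.0 FPKM). The secretory markers summed to 1290 to 1420 FPKM in DMSO, 1390 to 1510 FPKM in 4OHT and 2180 to 2350 FPKM in E2. Keratins carried most of this difference, with *Krt7* at 222 to 439 FPKM in DMSO and 748 to 927 FPKM in E2. *Krt8* and *Krt18* were also higher with E2 in each pair. *Ovgp1* was lower in each pair, at 1.99, 2.11 and 2.61 FPKM in DMSO and 1.49, 2.01 and 1.44 FPKM in E2. *Wt1* was at 26.3 to 45.3 FPKM in DMSO and 28.5 to 40.6 FPKM in E2. *Epcam* stayed at or below 0.138 FPKM and *Cdh1* at or below 0.422 FPKM in all 9 samples. Markers of endothelium, leukocytes and smooth muscle had 0 of 3, 1 of 3 and 1 of 3 genes with a median of at least 1 FPKM, and so had 3 of the 5 ciliated markers measured. The endothelial *Kdr* was at 0.64, 0.445 and 0.711 FPKM in DMSO and 1.21, 1.01 and 1.28 FPKM in E2. *Cnn1* of smooth muscle was at 14.4, 20.7 and 36.5 FPKM in DMSO and 10.0, 13.2 and 31.5 FPKM in E2. The leukocyte marker *Cd68* was also lower with E2 in each pair. The ciliated markers summed to 18.0 to 20.6 FPKM in DMSO, 18.4 to 20.5 FPKM in 4OHT and 13.8 to 17.7 FPKM in E2. *Foxj1* (13.6, 15.3 and 15.9 FPKM in DMSO, 8.95, 11.7 and 13.0 FPKM in E2) and *Ccdc39* were lower with E2 in each pair. *Rsph1* was higher in each pair (3.10, 3.21 and 2.98 FPKM in DMSO, 3.65, 3.86 and 3.52 FPKM in E2). Of the 6 stroma markers 2 had a median of at least 1 FPKM, *Dcn* and *Col1a1*, the latter at 1.84 to 6.73 FPKM over the 9 samples. The 6 summed to 3.64 to 7.79 FPKM in DMSO, 5.21 to 8.5 FPKM in 4OHT and 10.7 to 23.2 FPKM in E2. The difference with E2 was carried by *Dcn*. *Thy1* was listed at 0, *Col1a2* and *Lum* were at or near 0, and *Pdgfra* stayed at or below 0.111 FPKM in every sample. The part of these levels in the results on glycosyltransferases was not tested, and in bulk samples fewer cells of a type cannot be told apart from less RNA per cell.

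Of the 92 rows, 47 reached 1 FPKM in at least 3 samples and were tested. The other 45 never reached 1 FPKM in any sample (highest value 0.949, a row of *St3gal6*). In 33 of them every value was below 0.1 FPKM, and 8 were listed at 0 in all 9 samples. The minimum could be met through 1 condition alone, and the 47 are not all members. *B3gnt7* and *B3gnt8* met it only through their E2 samples, since outside E2 they reached 1 FPKM only in replicate 1 of DMSO and of 4OHT. All GCNT and fucosyltransferase genes outside *Gcnt1*, *Gcnt2*, *Gcnt3*, *Fut8*, *Fut10* and *Fut11* were among the untested, and so were *St6galnac1*, *St6gal2*, *St8sia4*, *Mgat4c* and *Mgat5b*.

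The abundant members came from several families. *Mgat4b*, which adds a branch to N-glycans, had 73.9 ± 7.91 FPKM in DMSO (SD, n = 3), *Mgat2*, which starts the second antenna, 38.7 ± 0.508 FPKM, and *Galnt2*, which starts O-glycans, 37.9 ± 4.08 FPKM. These last 2 levels lie within the spread of *B4galt5* (37.4 ± 6.69 FPKM in DMSO), a galactosyltransferase that makes lactosylceramide. The most abundant sialyltransferases in DMSO were *St3gal1* (26.5 ± 14.5 FPKM), *St3gal5* (24.8 ± 8.36 FPKM), which makes the ganglioside GM3, and *St3gal2* (22.5 ± 1.36 FPKM), which do not differ beyond their spread. *Chst12*, a chondroitin sulfotransferase, had 29.9 ± 7.44 FPKM and *Chst11* 15.01 ± 5.56 FPKM. Among the fucosyltransferases *Fut8*, which adds the core fucose of N-glycans, led with 22.0 ± 2.27 FPKM in DMSO, ahead of *Fut10* with 7.73 ± 0.689 FPKM.

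Summed over each family, sialyltransferases had 160.9 ± 24.3 FPKM in DMSO, 192.6 ± 21.5 FPKM in E2 and 164.3 ± 17.3 FPKM in 4OHT (SD, n = 3 each). The B4GALT family without *B4galt1* (which is set apart further on) had 63.97 ± 5.92 FPKM in DMSO, 82.66 ± 7.4 FPKM in E2 and 69.22 ± 7.65 FPKM in 4OHT. In these families, as in CHST (60.59 ± 1.65, 69.44 ± 2.55 and 62.28 ± 1.89 FPKM) and B3GNT (39.91 ± 1.5, 46.75 ± 3.66 and 40.53 ± 0.366 FPKM), the E2 sample stood above the DMSO sample of its own replicate in all 3 pairs, and so it did in the MGAT, GCNT and fucosyltransferase sums. The 4OHT sample also stood above its DMSO sample in all 3 pairs in the B4GALT, GALNT, MGAT and GCNT sums. The MGAT sums were 154.5 ± 6.06, 163.2 ± 5.59 and 164.6 ± 2.47 FPKM in DMSO, E2 and 4OHT, and the GCNT sums 18.3 ± 2.64, 19.82 ± 2.57 and 19.48 ± 3.47 FPKM. The GALNT sum of 112.7 ± 8.63 FPKM in DMSO and 114.5 ± 9.9 FPKM in E2 moved by less than its SD. No test was run on these sums, and single members weigh heavily in them. Means in DMSO and E2 were 26.54 and 52.24 FPKM for *St3gal1*, 37.43 and 54.62 FPKM for *B4galt5*, and 15.01 and 22.51 FPKM for *Chst11*. The median E2 difference of the tested members in log2(FPKM + 1) was 0.0252 for sialyltransferases, 0.103 for B4GALT (with *B4galt1*) and 0.00783 for CHST. It was 0.0603 for B3GNT, 0.0705 for MGAT, 0.0876 for GALNT, -0.0861 for GCNT and -0.0667 for fucosyltransferases. In GCNT and fucosyltransferases a higher sum thus went with a median below 0, and in the other families the median was above 0.

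**Figure D1:**
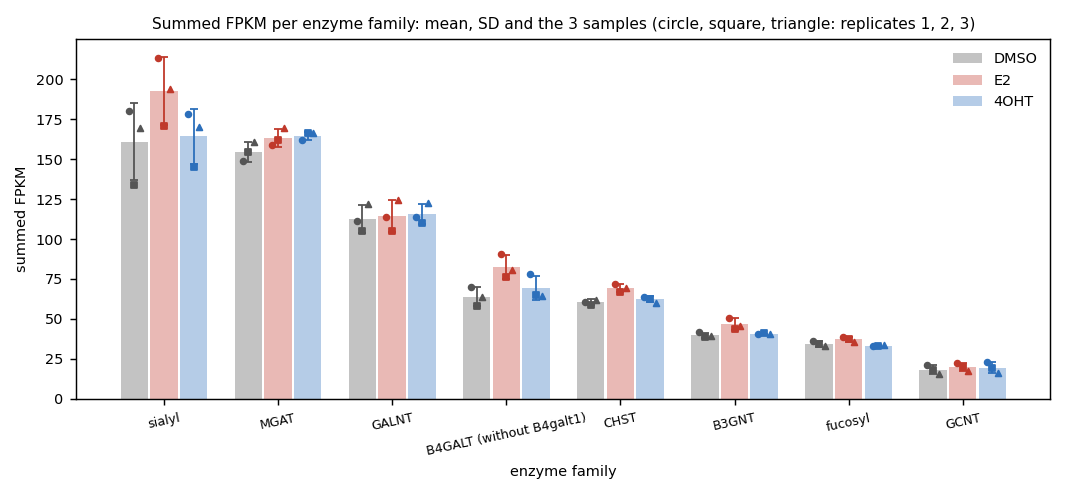
Summed FPKM of the member rows of each enzyme family (x axis) in DMSO, E2 and 4OHT, with bars for the mean of 3 samples, error bars for the SD and points for the samples (circle, square and triangle for replicates 1, 2 and 3). The sialyltransferase sum reaches 170.4 to 213.3 FPKM in E2 against 133.5 to 180.0 FPKM in DMSO, and the GALNT sums stay between 104.9 and 124.7 FPKM in all conditions.

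The comparison of E2 with DMSO asked which members respond to estrogen. Members of all 8 families were higher with E2 in the fit that compares samples of the same replicate number (the replicate block). They were led by *B3gnt8*, *B3gnt7* and *St3gal1*, followed by *Mgat5*, *St6galnac2*, *Chst11* and *B4galt5*, and then by smaller differences in *Gcnt2*, *Fut8*, *Galnt4*, *Mgat2*, *Galnt11* and *St3gal3*. *Fut10* and *St8sia1* were lower. With the block, 13 of 47 tested members rose (27.7%, beside 12.2% of all 11339 rows tested) and 2 fell (4.26%, beside 6.63% of all rows), by limma with an adjusted p under 0.05. The 13 include *B3gnt8* and *B3gnt7*, which were tested only because of their level in E2. Their lead, their place in the count and their p-values are therefore no separate support. Without the block none of the 47 passed, while 0.803% of all rows did. In that fit 11 members had an unadjusted p under 0.05, and the smallest adjusted p of a member was 0.144 (*B3gnt7*). The median difference over the 47 members was 0.03 in log2(FPKM + 1), beside -0.0017 over all rows.

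*B3gnt8* extends N-acetyllactosamine chains on branched N-glycans. Its level was 3.49, 0.423 and 0.571 FPKM in DMSO replicates 1, 2 and 3, and 8.01, 5.58 and 4.37 FPKM in the E2 samples of the same numbers. The groups did not overlap, and DMSO replicate 1 was the high sample of its group. E2 stood 2.3, 13.2 and 7.65 times above DMSO in the 3 pairs, and the fitted difference was 1.66 in log2(FPKM + 1) with an SE of 0.198 in the block (adjusted p = 0.00111, limma) and an SE of 0.426 without it (adjusted p = 0.182). Without DMSO replicate 1 the difference passed in both fits, at 1.98 with the block (adjusted p = 3.18e-05, limma) and 2.19 without it (adjusted p = 0.0118). DMSO replicate 1 was the DMSO sample nearest to E2, and *B3gnt8* was tested only because of its level in E2. These p-values are thus no separate support.

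*B3gnt7*, which takes part in making keratan sulfate chains, was at 1.09, 0.512 and 0.599 FPKM in DMSO and 4.57, 2.20 and 1.86 FPKM in E2. Every E2 sample lay above every DMSO sample, and the ratio within pairs was 4.21, 4.31 and 3.1. The difference was 1.11 (SE 0.106, adjusted p = 0.000382, limma with the block). Both B3GNT genes were weak in DMSO, and their fitted differences understate the ratio of FPKM because 1 is added before the logarithm. The other tested B3GNT rows had no call, among them *B3gnt1* (17.9 ± 0.999 FPKM in DMSO and 17.0 ± 1.33 FPKM in E2), which is now known as a glucuronyltransferase of dystroglycan, and *B3gnt2* (10.7 ± 0.517 and 12.2 ± 1.27 FPKM), the main enzyme of chain extension (adjusted p = 0.0531 with the block).

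*St3gal1* caps the core 1 chain of O-glycans with sialic acid. It had 43.3, 18.9 and 17.4 FPKM in DMSO and 70.3, 47.2 and 39.3 FPKM in E2. DMSO replicate 1 lay above the lowest E2 sample, so the groups overlapped, while E2 was higher in each pair by a ratio of 1.62, 2.5 and 2.26. The difference of 1.03 had an SE of 0.103 in the block (adjusted p = 0.000477, limma) and of 0.368 without it (adjusted p = 0.343). *St6galnac2*, which adds sialic acid to the first sugar of O-glycans, was at 16.07, 9.41 and 11.55 FPKM in DMSO and 25.6, 16.14 and 16.33 FPKM in E2. The lowest E2 sample lay just above the highest DMSO sample. Its difference was 0.61 (SE 0.0624, adjusted p = 0.00055, limma with the block). GENCODE M21 lists a second, overlapping gene under the same symbol on this strand, and the reads of the 2 could not be told apart here.

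*Mgat5* makes the branch of N-glycans on which long N-acetyllactosamine arms are often carried. It was at 8.55, 4.59 and 4.02 FPKM in DMSO and 12.55, 9.20 and 6.34 FPKM in E2. The groups overlapped, because DMSO replicate 1 lay above E2 replicate 3, and the ratio within pairs was 1.47, 2.0 and 1.58. The difference was 0.64 (SE 0.0696, adjusted p = 0.000722, limma with the block). *Mgat2* was at 38.2, 38.7 and 39.2 FPKM in DMSO and 43.9, 42.9 and 46.1 FPKM in E2, groups that did not overlap, with a difference of 0.19 (SE 0.0341, adjusted p = 0.00743, limma with the block). The more abundant *Mgat4b* had no call, at 73.9 ± 7.91 FPKM in DMSO and 72.3 ± 7.46 FPKM in E2, and neither had *Mgat1*, which starts the first antenna, at 26.2 ± 0.775 and 26.8 ± 0.913 FPKM.

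*Chst11*, which sulfates chondroitin, had 21.4, 12.4 and 11.2 FPKM in DMSO and 29.55, 20.05 and 17.9 FPKM in E2. Again DMSO replicate 1 lay inside the range of E2, with ratios within pairs of 1.38, 1.62 and 1.6. The difference was 0.58 (SE 0.0473, adjusted p = 0.000184, limma with the block). *Chst12*, of the same activity, was at 22.35, 30.1 and 37.2 FPKM in DMSO and 25.6, 31.7 and 37.8 FPKM in E2, which is a spread between replicates with little difference within pairs. *B4galt5* had 44.8, 31.7 and 35.8 FPKM in DMSO and 62.5, 48.5 and 52.9 FPKM in E2. The groups did not overlap, and the difference of 0.54 had the smallest adjusted p of all members (SE 0.0400, adjusted p = 0.00012, limma with the block).

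Differences in the remaining members past the threshold were small. *Gcnt2*, which branches N-acetyllactosamine chains, rose from 9.40 ± 0.601 to 11.7 ± 1.08 FPKM (adjusted p = 0.00408) and *Fut8* from 22.0 ± 2.27 to 26.7 ± 2.19 FPKM (adjusted p = 0.00267), both by limma with the block. *Galnt4* (4.05 ± 0.426 to 4.84 ± 0.185 FPKM) overlaps *Poc1b* on its strand, so its reads may be shared. Of the 2 that fell, *Fut10* was at 7.03, 8.41 and 7.74 FPKM in DMSO and 5.41, 6.385 and 6.72 FPKM in E2 (difference -0.28, adjusted p = 0.0069, limma with the block). *St8sia1*, which makes the ganglioside GD3, was at 1.67, 1.42 and 2.06 FPKM in DMSO and 0.956, 1.15 and 1.58 FPKM in E2 (difference -0.29, adjusted p = 0.0254, limma with the block). Both genes were lower with E2 in all 3 pairs, and for *St8sia1* the groups overlapped.

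When each of the 9 samples was left out in turn, 10 of the 15 calls with the block held in all 9 fits. These were *B3gnt7*, *B3gnt8*, *St3gal1*, *Mgat5*, *St6galnac2*, *Chst11*, *B4galt5*, *Gcnt2*, *Fut8* and *Fut10*. For *B3gnt7* and *B3gnt8*, tested only because of their level in E2, this is no separate support. The call held in 8 fits for *Mgat2*, which lost it without DMSO replicate 3, in 5 for *Galnt4*, which lost it without replicate 2 or 3 of DMSO or E2, and in 4 for *St8sia1*, which lost it without any 1 DMSO sample and without E2 replicate 1 or 3. *St3gal3* kept its call only without DMSO replicate 1 and *Galnt11* only without E2 replicate 1. Scaling the samples to a common upper quartile changed the split over all rows with the block from 64.8% to 47.2% higher, and left 11 members higher and 2 lower.

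**Figure D2:**
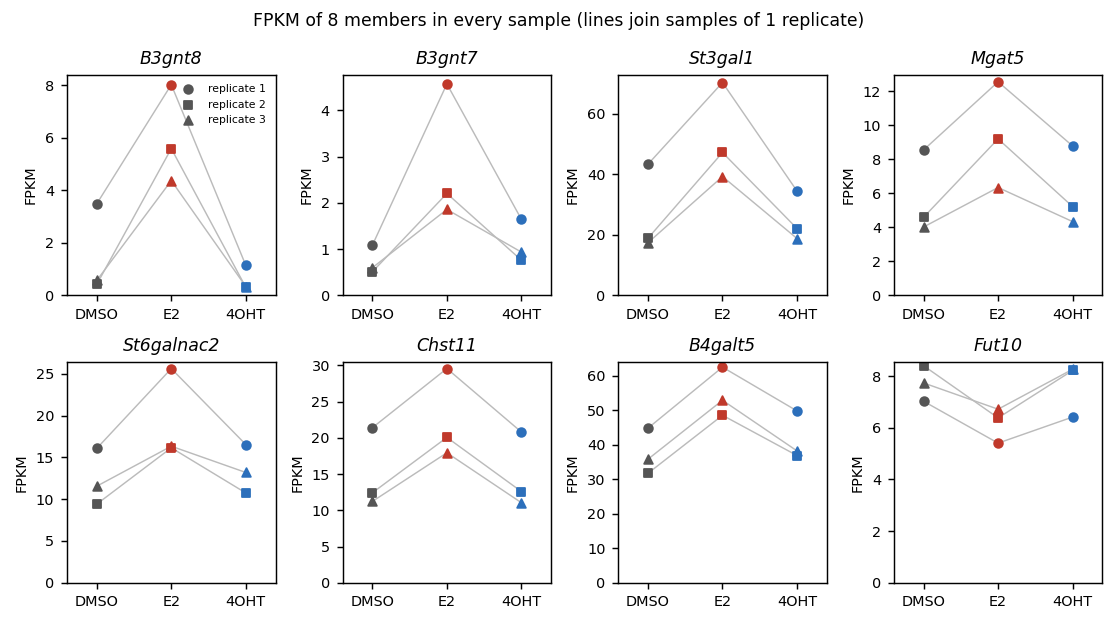
FPKM (y axis, from 0) of 8 members in DMSO, E2 and 4OHT (x axis), with 1 point per sample and grey lines that join samples of the same replicate number. In the first 7 panels E2 is the highest point of every line, and in *Fut10* the lowest. Replicate 1 is the highest sample of each condition in the first 7 panels and the lowest in *Fut10*.

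To show the sequence before the start of genes that were higher with E2, the 7 members with a difference above 0.5 were looked up in the RefSeq promoter table (GRCm38.p6), which had an entry for 5. The 250 bases before the start are printed for the 3 whose window holds at most 10 bases of an exon of the gene in GENCODE M21. For *Chst11* (chr10:82985247-82985496, plus strand) and *Mgat5* (chr1:127204736-127204985, plus strand) the window lies outside the exons of the gene, and for *B4galt5* (chr2:167349179-167349428, minus strand) it takes in 5 bases of the first exon. Each is written 5′ to 3′ on the strand of the gene, and capitals mark GGTCA, the arm of the estrogen response element, or its reverse complement.
Mgat5 promoter: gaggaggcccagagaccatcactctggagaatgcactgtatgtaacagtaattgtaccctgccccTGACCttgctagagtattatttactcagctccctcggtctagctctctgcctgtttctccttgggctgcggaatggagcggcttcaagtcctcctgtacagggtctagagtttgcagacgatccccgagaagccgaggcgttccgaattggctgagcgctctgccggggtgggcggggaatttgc
B4galt5 promoter: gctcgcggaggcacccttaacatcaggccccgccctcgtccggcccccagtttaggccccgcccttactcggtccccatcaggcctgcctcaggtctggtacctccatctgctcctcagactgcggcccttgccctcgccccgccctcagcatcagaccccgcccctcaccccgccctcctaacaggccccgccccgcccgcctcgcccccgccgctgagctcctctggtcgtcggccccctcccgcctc
Chst11 promoter: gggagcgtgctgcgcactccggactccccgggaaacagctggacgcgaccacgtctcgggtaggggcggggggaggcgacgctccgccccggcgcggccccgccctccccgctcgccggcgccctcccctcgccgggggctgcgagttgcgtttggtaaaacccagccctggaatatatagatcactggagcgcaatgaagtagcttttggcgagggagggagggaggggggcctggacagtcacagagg
*Mgat5* held 1 such arm, 185 bases before the start, and the other 2 windows held none. Over both strands, the arm was present in 4 of the 16 promoters of members higher with E2 (25.0%), in 24 of the 91 promoters of all members in the table (26.4%) and in 35.2% of all 32851 promoters. The 16 promoters belong to 10 genes and the 91 to 67 genes, so these are shares of promoters and not of genes. *St3gal1* and *St6galnac2* had no entry. The inverted repeat of the arm with 3 bases between, which contains the arm on each strand, was present in 0 of the 91 and in 0.0639% of all promoters. A match is a match of letters in this window only.

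The comparison of 4OHT with DMSO asked whether the modulator acts on the members by itself. No member passed the threshold in either fit. Without the block 0 of 47 passed, beside 0.132% of all rows, and 0 had an unadjusted p under 0.05 (limma). With the block 0 were higher, beside 0.256% of all rows, and 0 were lower, beside 0.0882% of all rows, with 8 members at an unadjusted p under 0.05 and a smallest adjusted p of 0.199 (*St3gal4*). In all 3 pairs 17 of 47 members were higher with 4OHT (36.2%, beside 30.0% of all rows) and 2 were lower (4.26%, beside 15.5%). The median difference was 0.04 over the members, beside 0.02 over all rows. E2 and 4OHT were compared with the same 3 DMSO samples.

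*B3gnt8* had 1.15, 0.311 and 0.340 FPKM in 4OHT replicates 1, 2 and 3, against 3.49, 0.423 and 0.571 FPKM in DMSO. It was lower in each pair, and the 95% interval of the difference ran from -0.926 to -0.0152 (difference -0.47, adjusted p = 0.351, limma with the block). Without DMSO replicate 1 the difference was -0.16 with the block and 0.06 without it. With the block it was below 0 whichever of the 9 samples was left out. A pseudocount of 0.1 gave a difference of -0.83 (adjusted p = 0.347, limma with the block). The study itself lists *B3gnt8* among the genes significantly lower with 4OHT, by Cuffdiff, a call that neither fit here made. *B3gnt7* had 1.65, 0.762 and 0.937 FPKM in 4OHT, above DMSO in each pair by 1.51, 1.49 and 1.56 times, with an interval of 0.0350 to 0.525 (difference 0.28, adjusted p = 0.323, limma with the block).

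*St3gal1* was at 34.5, 22.1 and 18.8 FPKM in 4OHT, below DMSO in replicate 1 and above it in replicates 2 and 3, with an interval of -0.237 to 0.237 with the block. *Chst11* was at 20.8, 12.6 and 11.04 FPKM in 4OHT, with an interval of -0.123 to 0.0944 with the block and of -0.692 to 0.664 without it. For these genes the width of the interval, which depends on the fit, limits what a change in 4OHT could be. A missed threshold does not show that 4OHT and solvent act alike. *B4galt5*, at 49.8, 36.9 and 38.2 FPKM in 4OHT, lay above DMSO in each pair (interval 0.0587 to 0.243, adjusted p = 0.249, limma with the block).

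**Figure D3:**
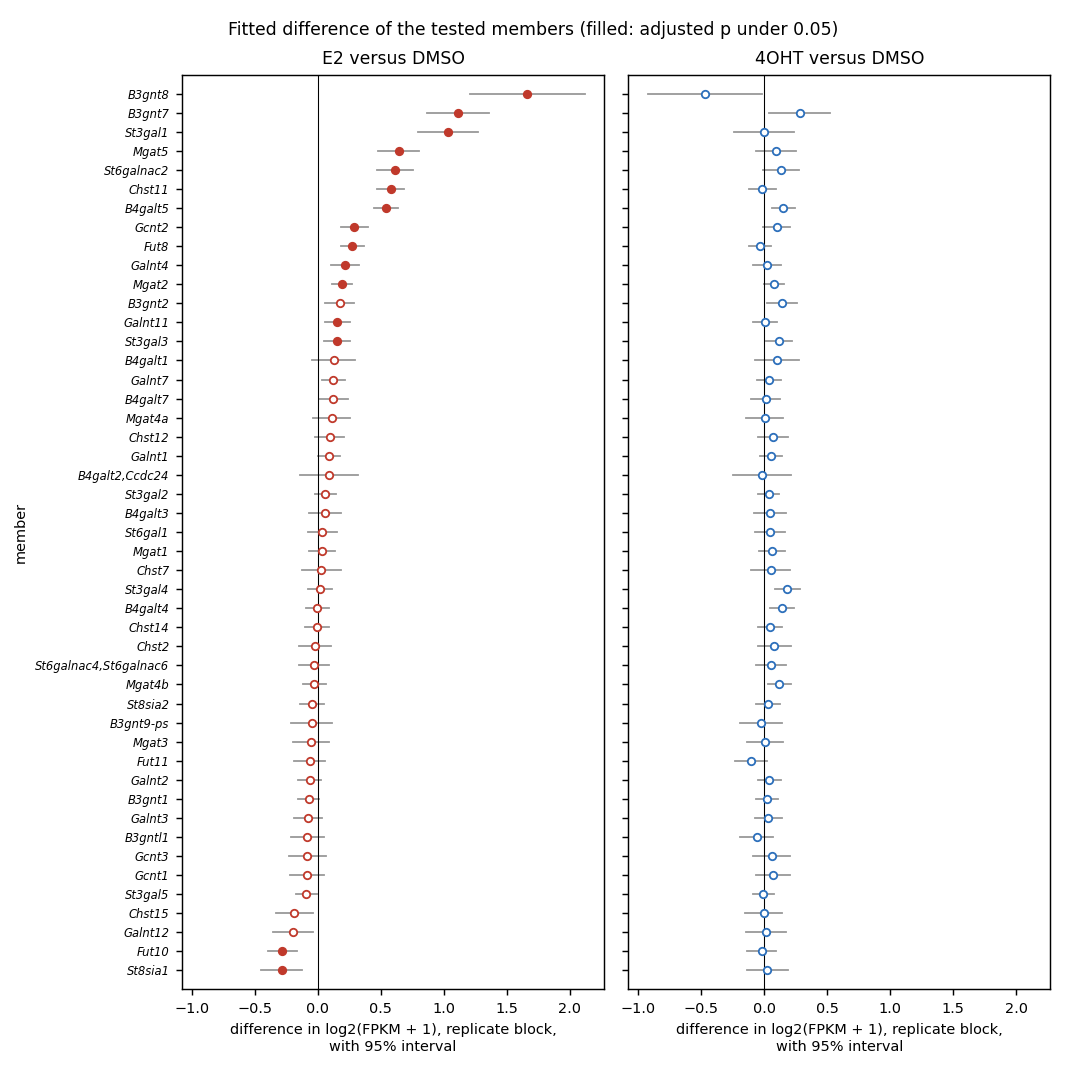
Fitted difference in log2(FPKM + 1) (x axis) of the 47 tested members (y axis, in the order of the E2 difference) with the replicate block, for E2 versus DMSO at the left and 4OHT versus DMSO at the right, with lines for the 95% interval and filled points for an adjusted p under 0.05. In E2, 13 filled points lie above 0 and 2 below, and in 4OHT no point is filled.

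E2 was compared with 4OHT to see where the ligands, at their different doses, leave the members at different levels. This comparison uses the same E2 samples as the one with DMSO. With the block 12 of 47 members were higher in E2 (25.5%, beside 10.8% of all rows) and 5 were lower (10.6%, beside 11.1% of all rows), by limma with an adjusted p under 0.05. The 12 again include *B3gnt8* and *B3gnt7*, tested only because of their level in E2. Without the block none passed, beside 0.556% of all rows, 7 members had an unadjusted p under 0.05, and the smallest adjusted p of a member was 0.105 (*B3gnt8*).

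*B3gnt8* again had the widest gap, with E2 above 4OHT by 7.0, 17.9 and 12.8 times in the 3 pairs and no overlap of the groups (difference 2.13, SE 0.198, adjusted p = 0.000471, limma with the block). Without the block it passed only when DMSO replicate 1 was left out (adjusted p = 0.0108, limma) or when the fit held the 6 samples compared (adjusted p = 0.0289, limma). Its level in E2 put *B3gnt8* in the test, so these passes are no separate support. *St3gal1* stood 2.04, 2.14 and 2.09 times above 4OHT (difference 1.03, adjusted p = 0.000637, limma with the block), and its E2 and 4OHT samples did not overlap. The difference in *B3gnt7* was 0.83, in *Chst11* 0.59, in *Mgat5* 0.55, in *St6galnac2* 0.48, in *B4galt5* 0.39 and in *Fut8* 0.31, all past the threshold with the block, and so were smaller ones in *Gcnt2*, *Galnt4*, *Galnt11* and *Mgat2*.

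Among the 5 lower in E2, *Fut10* and *St8sia1* had differences of -0.27 and -0.31. The other 3 were *St3gal4*, which caps N-acetyllactosamine with sialic acid, *Mgat4b* and *B4galt4*, with differences of -0.16, -0.15 and -0.15. *St3gal4* was at 7.58, 8.43 and 8.22 FPKM in 4OHT, 6.50, 7.21 and 7.60 FPKM in E2 and 6.21, 7.34 and 7.51 FPKM in DMSO. *Mgat4b* was at 73.5, 85.7 and 81.7 FPKM in 4OHT and 63.9, 74.75 and 78.2 FPKM in E2. For all 3 the 4OHT sample was the highest of its replicate, and none of them differed from DMSO past the threshold in E2 or in 4OHT. With single samples left out, the fit with the block called between 9 and 16 members. It called 9 without 4OHT replicate 1, 10 without 4OHT replicate 2, and 11 without E2 replicate 1, E2 replicate 2, DMSO replicate 3 or 4OHT replicate 3. The 8 members with the largest increases passed in all 9 fits, *Fut10* in 8, *St8sia1* in 6, *Gcnt2* in 5, *Mgat4b* in 4, *Galnt4* and *St3gal4* in 3, *Galnt11* in 2, *B4galt4* in 1 and *Mgat2* in 0.

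The spread between replicates was wide in some members with no call for either ligand. *Galnt3*, an O-glycan starter, was at 12.5, 18.6 and 25.7 FPKM in DMSO, 12.5, 16.7 and 24.0 FPKM in E2 and 13.2, 19.8 and 24.6 FPKM in 4OHT, so that samples of the same number lay close together. *St3gal5* followed its replicate in the same way, at 21.9, 18.3 and 34.2 FPKM in DMSO and 19.9, 18.0 and 31.4 FPKM in E2. *Gcnt1*, which makes core 2 O-glycans, was at 8.87, 5.08 and 4.55 FPKM in DMSO and 9.62, 5.11 and 4.88 FPKM in 4OHT. All 3 samples of replicate 1 lay above all those of replicates 2 and 3 in 8 of 47 members (17.0%, beside 10.8% of all rows), and below them in 4 (8.51%, beside 10.3%). The 8 were *Chst2*, *Chst7*, *Chst11*, *Chst15*, *Galnt2*, *Gcnt1*, *Mgat4a* and *St3gal3*, and the 4 were *Chst12*, *Chst14*, *Galnt3* and *Mgat4b*. The counts take all conditions together, so a member that differs with E2 can miss them. *B3gnt7*, *B3gnt8*, *St3gal1*, *Mgat5*, *St6galnac2* and *B4galt5* are not among the 8, although replicate 1 was the highest sample within each condition.

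**Figure D4:**
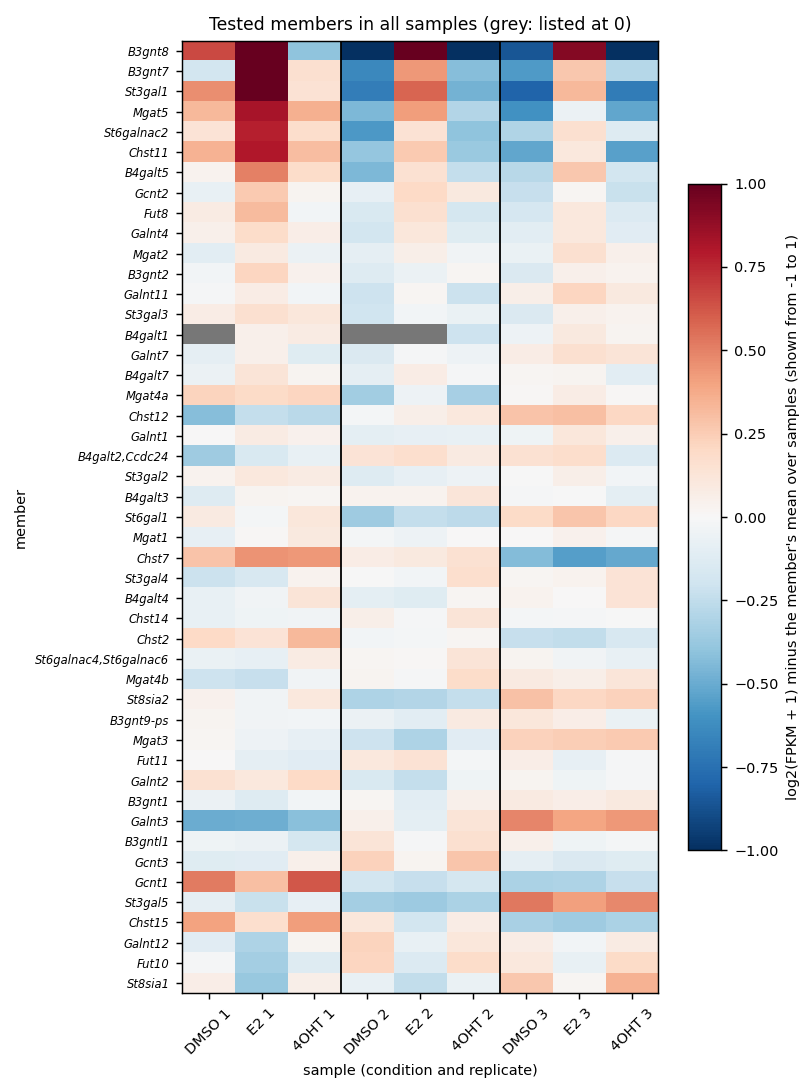
The 47 tested members (rows, in the order of the E2 difference) in the 9 samples (columns, grouped by replicate), coloured by log2(FPKM + 1) minus the mean of the member, from -1 (blue) to 1 (red). The top rows are red in the E2 column of each replicate, *Galnt3* and *St3gal5* change from one replicate to the next, and grey cells mark the 3 samples in which *B4galt1* was listed at 0.

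*B4galt1*, the main galactosyltransferase of N-glycans, was listed at exactly 0 in DMSO replicate 1, DMSO replicate 2 and E2 replicate 2. In the other 6 samples it was among the most abundant members, at 76.6 FPKM in DMSO, 82.4 and 85.0 FPKM in E2, and 84.1, 68.8 and 80.8 FPKM in 4OHT. These 3 values were set apart as missing, and what the zeros stand for was not tested. It was the only tested member with such a 0, out of 242 rows in all. Without the zeros its difference was 0.12 for E2 versus DMSO (adjusted p = 0.266, limma with the block), resting on 1 DMSO sample and 2 E2 samples. With the zeros kept as values the same difference was 2.18 and that of 4OHT versus DMSO 4.20, neither past the threshold (adjusted p = 0.408 and 0.381, limma with the block), and the summed FPKM of its family was 89.49 FPKM in DMSO, 138.5 FPKM in E2 and 147.1 FPKM in 4OHT.

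Genes that supply the donors of these enzymes, act beside them, remove their sugars or carry and bind the chains were read from 8 lists of 88 genes, of which 87 were in the table and 61 were tested. Without the block none of the 61 passed in any comparison. With it 15 were higher and 2 lower in E2 versus DMSO, where 12.2% and 6.63% of all rows were. In 4OHT versus DMSO 0 passed. In E2 versus 4OHT 11 were higher and 2 lower, where 10.8% and 11.1% of all rows were. *Ugp2*, which makes UDP-glucose, went from 40.2, 29.0 and 33.1 FPKM in DMSO to 70.2, 44.4 and 51.0 FPKM in E2 (difference 0.66, adjusted p = 0.000382, limma with the block). It was 1 of 4 of the 13 tested genes for UDP-sugar supply that rose, among them *Gfpt1*, which opens the hexosamine pathway, and *Nagk*. None of the 5 genes for sialic acid supply and none of the 5 tested genes for sulfate supply passed, and of 5 genes for GDP-fucose supply 1 rose.

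Of 12 tested removal enzymes 5 rose with E2 and none fell, where 12.2% of all rows rose and 6.63% fell with the block, shares that also stand beside the next counts. *Neu1*, the lysosomal sialidase, was at 11.5, 9.17 and 10.9 FPKM in DMSO and 16.2, 13.8 and 17.4 FPKM in E2, groups that did not overlap (difference 0.54, adjusted p = 0.00032, limma with the block). *Galns*, a lysosomal sulfatase, had a difference of 0.35. Of 9 tested Golgi transferases outside the member families 2 rose, among them *C1galt1*, which makes the core 1 chain that *St3gal1* caps, at 21.3, 15.7 and 17.7 FPKM in DMSO and 24.8, 19.7 and 22.9 FPKM in E2. Of 6 tested acceptors 2 rose and 1 fell. *Cd24a*, a mucin-like surface protein, had a difference of 0.50 and *Podxl*, podocalyxin, one of -0.29 (adjusted p = 0.000448 and 0.00502, limma with the block). Of 6 tested glycan-binding proteins 1 rose and 1 fell, the latter being *Siglecg*, a sialic acid receptor, with a difference of -0.25.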

How the data were processed

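Cells were sequenced as directional single-end mRNA libraries. The authors removed adapters, aligned the reads to mm10 with TopHat2 2.0.8b and computed the deposited FPKM, 1 table per sample, with the Cufflinks and Cuffdiff 2.1.1 tools and a UCSC annotation, as the methods and labels name them. The file headers do not name the unit, and read counts and depth are not in these tables. No deposited column of the authors' own comparisons was used. Conditions and replicate numbers came from the labels.

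limma 3.58.1 (R 4.3.3) was fitted with a trend to log2(FPKM + 1) of all 9 samples over 11339 rows with at least 1 FPKM in at least 3 samples, with Benjamini-Hochberg adjustment over all of them and a threshold of 0.05. An exact 0 in a row with a median nonzero value of at least 1 FPKM, and another sample of its condition above 0, was taken as missing (509 values in 242 rows). The main fit had no block, since the methods name none. The labels number the samples 1 to 3 in each condition but do not say that samples of the same number belong together. Pairing by that number was assumed. Over 11094 rows with no 0 in any sample, deviations of same-numbered samples from their condition means correlated at 0.523 to 0.828 in all 9 pairings. The fit with the replicate block is therefore given beside the main fit. No 2 samples were identical. The scripts were tested on simulated data.

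Members named are those past the threshold in either fit, the 2 most abundant of each family, those with a set-apart 0, *St3gal1* and *B3gnt8*, and up to 10 genes of the pathway lists, of which some are not reported here. A few others (such as *Galnt3*, *Nagk* and the untested rows) were named after their values were seen. The members and lists were chosen with earlier results of these data known. Other settings tried were another pseudocount, no filter, zeros kept, upper-quartile scaling, fewer samples and each sample left out. Gene positions came from GENCODE M21 and promoters from RefSeq (GRCm38.p6), the same assembly as mm10.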

Additional observations from a re-analysis of the deposited data

How the results depend on the processing

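The number of members past the threshold was 0 in all 3 comparisons without the block, also with a pseudocount of 0.1, no filter, zeros kept as values or upper-quartile scaling. With the 6 samples compared alone it was 1 for E2 versus 4OHT, and with each sample left out it ranged from 0 to 1 for E2 versus DMSO, 0 to 0 for 4OHT versus DMSO and 0 to 1 for E2 versus 4OHT, in that order below (*B3gnt8*, without DMSO replicate 1). That gene was tested only because of its level in E2. With the replicate block, a pairing assumed from the replicate numbers in the labels, the number of members past the threshold was 15, 0 and 17. It was 14, 0 and 17 with zeros kept as values. Further settings with the block were chosen after seeing the data. Upper-quartile scaling gave 13, 0 and 16, rows with a set-apart 0 left out 16, 0 and 17, a pseudocount of 0.1 15, 0 and 17, no filter 14, 0 and 13, and leaving out each sample 10 to 13 (10, 11, 12 or 13), 0 to 0, and 9 to 16 (9, 10, 11, 12, 14 or 16). No past-threshold difference of a named member changed its sign under any of these settings. Counts over all rows moved more: 91, 15 and 63 rows passed without the block and 2134, 39 and 2482 with it, and with zeros kept 58, 0 and 18 without it and 1702, 0 and 1840 with it. Of the rows called for 4OHT versus DMSO, 14 of 15 without the block and 23 of 39 with it hold a set-apart 0. The cause of these changes was not tested. FPKM without read counts give no counting error, and weak members such as *B3gnt8* and *B3gnt7* depend on the pseudocount in size: the *B3gnt8* difference for E2 versus DMSO with the block was 2.45 with a pseudocount of 0.1.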
